A study of Mus musculus with 39 samples.

Results

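The levels of 10 mouse genes, Bin1, Picalm, Sorl1, Abca7, Cd33, Inpp5d, Plcg2, Abi3, Spi1 and Mef2c, were examined in the RNA-seq data of microglia from WT and 5XFAD mice. They are the orthologs of human genes at loci that carry genetic risk of Alzheimer's disease, and they were found in the tables by symbol. The list was drawn up with earlier results of these data known. All 10 were present among the 46333 genes of the female count table and the 54532 genes of the male count table, and all 10 passed the filter on low counts in every comparison. The cells were isolated from the cerebrum with magnetic beads against CD11b, which is carried by microglia and by other myeloid cells. The 5XFAD line carries transgenes with familial Alzheimer's disease mutations under the neuronal Thy1 promoter. WT mice (C57Bl6) were the controls. In the study's methods, 5XFAD males of a B6SJL line were bred with WT females, and the background of each sequenced genotype is not stated. CIH mice breathed air that cycled from 21% down to 6.5% oxygen, at an interval of 90 s, during 8 hours of sleep time, per the submitters' design text, whereas NX mice stayed at 21%. The study's methods state a somewhat lower oxygen minimum and longer daily hours. Exposure began at 4 months of age, and the cells were taken at 10 months in females and at 8 months in males. Sex and age therefore cannot be told apart, and females and males were not tested against each other. Each of the 8 groups held 5 libraries, except female WT NX with 4, which gave 39 libraries, 19 from females and 20 from males.

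Risk genes of this kind fall into a few classes. Cd33, Inpp5d, Plcg2 and Abi3 belong to the receptor signalling of myeloid cells, in which activating and inhibitory receptors act on kinases, phosphoinositides and the actin cytoskeleton. Bin1, Picalm and Sorl1 act in endocytosis and endosomal sorting, and Abca7 moves lipids across membranes. Spi1, which encodes PU.1, and Mef2c are transcription factors, and PU.1 is required for the development and identity of microglia. In amyloid models, microglia near plaques take on the disease-associated (DAM) profile, in which homeostatic genes decline and genes such as Cst7 and Apoe rise.

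The promoters of Inpp5d, Picalm and Sorl1 are shown as examples of windows that hold sequences recognised by PU.1 or by hypoxia-inducible factors. They were picked after the levels were seen, and other members with or without such sequences are given after them. Each is the run of 250 bases before the RefSeq start (GRCm38.p6), written 5′ to 3′ on the strand of the gene. Capitals mark matches, on either strand, to the PU.1 sequence GAGGAAGT, to the ETS core GGAAG, which the PU.1 sequence contains, and to the hypoxia response core ACGTG.
Inpp5d, chr1:87620062-87620311, plus strand: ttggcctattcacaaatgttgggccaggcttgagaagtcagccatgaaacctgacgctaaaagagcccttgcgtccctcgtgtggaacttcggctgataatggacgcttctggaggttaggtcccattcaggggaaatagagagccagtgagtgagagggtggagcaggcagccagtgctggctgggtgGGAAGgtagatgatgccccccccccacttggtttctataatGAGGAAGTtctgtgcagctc
Picalm, chr7:90129963-90130212, plus strand: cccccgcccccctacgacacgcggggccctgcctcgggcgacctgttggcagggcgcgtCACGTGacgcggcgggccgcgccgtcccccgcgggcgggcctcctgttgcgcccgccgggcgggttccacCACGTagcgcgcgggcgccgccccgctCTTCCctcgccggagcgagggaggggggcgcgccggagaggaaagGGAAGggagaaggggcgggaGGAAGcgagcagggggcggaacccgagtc
Sorl1, chr9:42124298-42124547, minus strand: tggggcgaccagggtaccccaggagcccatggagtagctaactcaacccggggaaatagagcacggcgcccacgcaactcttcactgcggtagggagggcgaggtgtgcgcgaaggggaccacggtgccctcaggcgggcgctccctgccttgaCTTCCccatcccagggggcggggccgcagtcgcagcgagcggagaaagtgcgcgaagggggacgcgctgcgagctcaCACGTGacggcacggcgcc

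The Inpp5d window held 1 match to the PU.1 sequence, whose first base lay at −20 from the start, and 2 ETS cores, 1 of them within that match. The Picalm window, of which 79.2% was G or C, held 3 matches to the hypoxia response core, 2 of them overlapping as a palindrome, and 3 ETS cores. In the Sorl1 window there were 2 matches to the hypoxia response core, again overlapping, and 1 ETS core. Among all 32851 promoters of the same length, 2.44% held the PU.1 sequence, 16.6% the hypoxia response core and 64.1% the ETS core. RefSeq promoters were used for 7 of the 10 members, in 10 windows, and the promoters of Bin1, Abi3 and Spi1 were not examined. The Inpp5d window was the only one of the 10 with the PU.1 sequence. The Plcg2 window, of a member called in no comparison, also held 2 overlapping hypoxia response cores, the first at −20. The second Sorl1 window (chr9:42077214-42077463) and the Abca7 window held none of the 3 motifs. The Cd33 window held 2 ETS cores, and the 3 Mef2c windows held 1, 2 and 1. A match describes the letters of the window, and binding was not measured.

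Total counts were 14731683 to 25906121 per female library (median 17127520) and 13457293 to 23095627 per male library (median 15062497). Levels are given below as normalised CPM, the counts of a gene relative to the size of its library, scaled with edgeR's TMM factors over all libraries of a table. Every library carried microglial markers, with summed levels of 9 genes of 27670.4 to 35322 CPM in WT and 22812 to 27887 CPM in 5XFAD libraries, and 8 neuronal markers summed to at most 29.4 CPM. The 10 DAM markers summed to 6707 to 16126 CPM in WT libraries and to 36479 to 95702 CPM in 5XFAD libraries other than female 5XFAD NX 4, which lay at 8240.2 CPM. The DAM gene Cst7 was at 16.4 CPM in that library, at 7.77 to 17.3 CPM in WT females and at 1154 CPM or above in the other 5XFAD females. Expression in the library labelled female 5XFAD NX 4 thus went against its label, and the members' values in comparisons that use it are also given without it. The study's methods report a female NX sample as an outlier without naming it. Male 5XFAD NX 4 and 5 also stood apart from the other 3 libraries of their group. Their Malat1 levels were 1640 and 1424 CPM against 139 to 195 CPM, although Cst7 was high in all 5 (1854 to 3741 CPM). Malat1, a nuclear noncoding RNA, also differed in range among the male groups, at 319.5 to 925 CPM in WT NX, 863 to 1341 CPM in WT CIH and 125 to 524 CPM in 5XFAD CIH. The ranges of WT CIH and 5XFAD CIH did not overlap, and the part of Malat1 in the male results was not tested. The sums of the 9 microglial markers did not overlap between genotypes within either sex, and 0, 1, 0 and 2 were called higher and 4, 5, 5 and 4 lower in 5XFAD in female NX, female CIH, male NX and male CIH. Markers of border macrophages, 6 genes, summed to 137 to 317 CPM in WT and to 63.5 to 180.0 CPM in 5XFAD libraries, and 6, 6, 5 and 3 of the 6 were called lower in 5XFAD in female NX, female CIH, male NX and male CIH. Astrocyte markers, 7 genes, summed to 130.5 to 218 CPM in WT and to 136 to 1001 CPM in 5XFAD libraries, and 1, 4, 3 and 2 were called higher and 1, 1, 1 and 2 lower in 5XFAD in female NX, female CIH, male NX and male CIH. Of 7 oligodendrocyte markers, 5 of them tested in females, which summed to 141 to 350.4 CPM in WT and to 159.6 to 596 CPM in 5XFAD libraries, 0, 1, 3 and 2 were called higher and 1, 1, 0 and 0 lower in 5XFAD in female NX, female CIH, male NX and male CIH. Of 10 genes that respond to cell isolation, 2, 2, 1 and 4 were called higher and 0, 0, 5 and 0 lower in 5XFAD in female NX, female CIH, male NX and male CIH, with sums of 1503 to 2128 CPM in WT NX and 1026 to 1590.3 CPM in 5XFAD NX males. Of 8 neutrophil markers, of which 5 were tested in females, 3 were called lower in 5XFAD in female CIH and 2 in male CIH, with no other call between genotypes. Of 7 endothelial markers, which summed to 55.4 to 206 CPM in WT and to 61.3 to 304 CPM in 5XFAD libraries, 1, 2, 1 and 1 were called higher and 1, 1, 1 and 1 lower in 5XFAD in female NX, female CIH, male NX and male CIH. Of 8 lymphocyte markers, 2, 3, 4 and 4 were tested, and 0, 0, 0 and 1 were called higher and 0, 1, 1 and 0 lower in the same order. Of the 8 neuronal markers, 5, 7, 8 and 8 were tested, and 0, 1, 1 and 1 were called higher and 0, 1, 1 and 0 lower. The NX counts of markers include the library labelled female 5XFAD NX 4 and male 5XFAD NX 4 and 5. The part of these markers in the results on genotype was not tested. In bulk RNA, fewer cells of a type and less RNA per cell cannot be told apart.

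The members differed widely in level per gene length. On the FPKM scale, Bin1 was the highest in WT NX microglia of both sexes, at 463 ± 23.9 FPKM in females (SD, n = 4) and 437 ± 38.8 in males (SD, n = 5). Sorl1 was the lowest, at 10.5 ± 1.29 FPKM in females and 5.49 ± 0.32 in males, and Abca7 was next to it at 19.8 ± 1.67 and 14.2 ± 1.93 FPKM. In females, Inpp5d (275 ± 27.7 FPKM), Cd33 (260.4 ± 31.2), Spi1 (246 ± 11.9) and Picalm (239 ± 29.4) formed a run in which each overlapped the next, followed without overlap by Abi3 (169 ± 15.9). Mef2c (64.8 ± 7.02 FPKM) and Plcg2 (63.0 ± 7.31) also overlapped. In males the order below Bin1 was Spi1 (217 ± 28.8 FPKM), Inpp5d (141 ± 14.0), Cd33 (136 ± 19.2), Plcg2 (68.8 ± 5.94), Picalm (42.8 ± 3.15), Abi3 (41.8 ± 7.83) and Mef2c (21.6 ± 3.04), and only the pairs Inpp5d and Cd33, and Picalm and Abi3, overlapped between neighbours. The female and male tables were made on different gene models, with Picalm and Mef2c at 3823 and 7371 bases in females and 15732 and 15715 bases in males, and the male FPKM values carry a further scaling factor per library, so no level was compared between them.

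**Figure D1:**
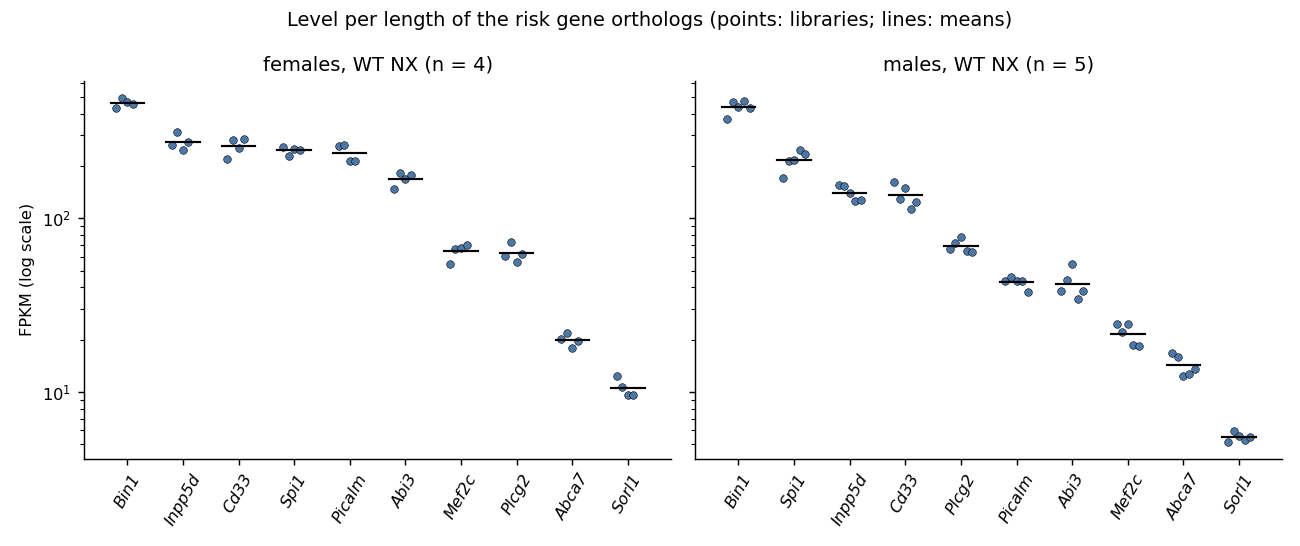
FPKM (log scale) of the 10 members in WT NX libraries, ordered by mean, for females (n = 4) and males (n = 5). Each point is a library and each line a mean. Bin1 was the highest and Sorl1 the lowest in both.

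The effect of genotype was examined within each sex and treatment with edgeR's quasi-likelihood test, and a member was called at an FDR below 0.05 (Benjamini-Hochberg, over all genes tested). In females, 2 of 10 members were called in WT NX vs 5XFAD NX, where 13.9% of all genes were called, and 7 of 10 in WT CIH vs 5XFAD CIH, where 51.9% were. Without the library labelled female 5XFAD NX 4, 5 of 10 were called in the NX comparison, against 44% of all genes. In males, 3 of 10 were called in WT NX vs 5XFAD NX (17.8% of all genes) and 5 of 10 in WT CIH vs 5XFAD CIH (49% of all genes). Without male 5XFAD NX 4 and 5, 4 of 10 were called in the male NX comparison, against 33.5% of all genes. By direction, 1 member was higher and 1 lower in female NX (7.26% and 6.61% of all genes), 2 and 5 in female CIH (26.2% and 25.7%), 1 and 2 in male NX (10.4% and 7.37%), and 1 and 4 in male CIH (25.3% and 23.7%). The study's definition of DEGs adds an absolute log2FC above 1, and Cd33 in WT CIH vs 5XFAD CIH males was the only member to meet it in the 8 comparisons with all libraries, where 18.7% of all genes met it, against 5.99% in female NX, 13% in female CIH, 8.25% in male NX and 2.51% in WT NX vs WT CIH males. Without male 5XFAD NX 4 and 5, Cd33 met it in male NX as well (log2FC −1.03 ± 0.12, FDR = 1.09e-05). CPM values did not overlap between genotypes for 2 members in female NX (11.4% of all genes), 5 in female CIH (38.4%), 5 in male NX (16%) and 2 in male CIH (36%). The median log2FC over the 10 members was −0.19, −0.17, −0.30 and −0.21 in the same order, and that over all genes tested was −0.02, −0.02, 0.02 and −0.06. NX and CIH comparisons of a sex share no library with each other.

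**Figure D2:**
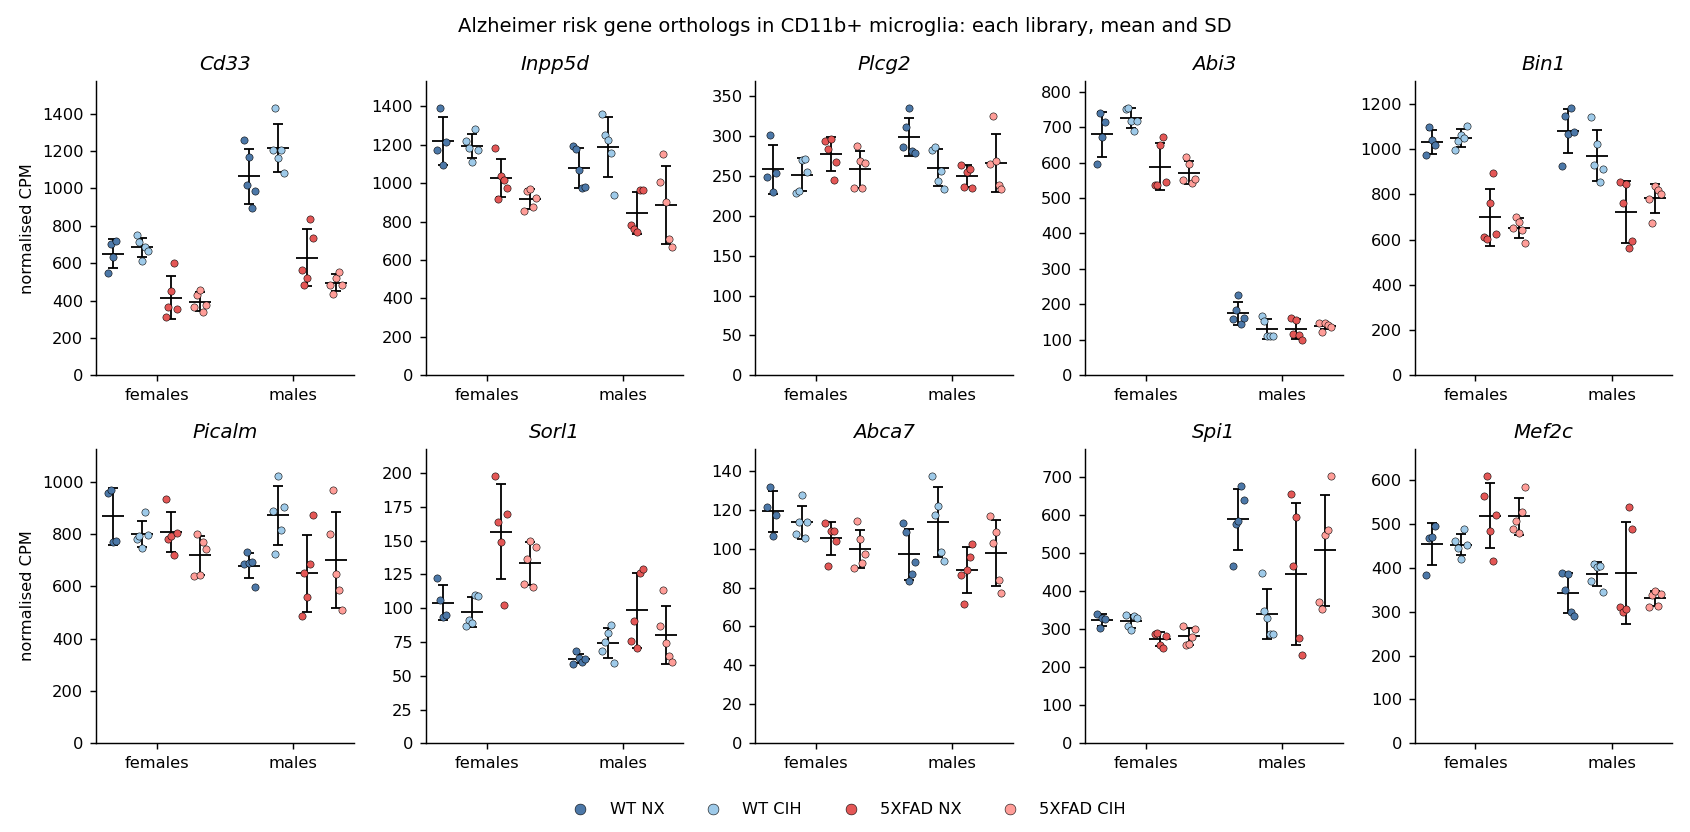
Normalised CPM of the 10 members in each library (points), with the mean and SD of each group, for the 4 groups of females (n = 4 in WT NX, otherwise 5) and males (n = 5). Within each sex and treatment, Bin1 was lower in every 5XFAD library than in every WT library, and so was Cd33 apart from the library labelled female 5XFAD NX 4, at 599 CPM.

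Cd33, a receptor of the sialic acid-binding Siglec family (chr7:43524216-43544428 on GRCm38), was lower in 5XFAD microglia and showed the largest change of the 10 in each comparison of genotype. In females, its levels were 548, 702, 632 and 719 CPM in WT NX and 311, 365, 449, 599 and 357 CPM in 5XFAD NX, and the groups overlapped at the fourth 5XFAD library alone. The difference missed the threshold with all libraries (log2FC −0.64 ± 0.19, FDR = 0.0515) and passed it without that library (log2FC −0.82 ± 0.13, FDR = 6.66e-04). In female CIH, levels were 753, 711, 614, 686 and 663 CPM in WT and 368, 432, 458, 341 and 376 CPM in 5XFAD, with no overlap and a 1.72-fold lower fitted level in 5XFAD (log2FC −0.78 ± 0.08, FDR = 5.12e-06).

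In males, Cd33 was at 1258, 1017, 1167, 896 and 984 CPM in WT NX and at 565, 482, 519, 838 and 737 CPM in 5XFAD NX. All WT libraries lay above all 5XFAD libraries (log2FC −0.76 ± 0.17, FDR = 0.00687), and the 2 highest of 5XFAD NX were libraries 4 and 5. Without these 2, the difference was larger (log2FC −1.03 ± 0.12, FDR = 1.09e-05). In male CIH, levels were 1206, 1431, 1160.1, 1203 and 1083 CPM in WT and 483, 434, 521, 553 and 485 CPM in 5XFAD, a 2.44-fold lower fitted level with no overlap (log2FC −1.29 ± 0.10, FDR = 1.42e-07). Cd33 was thus called lower in 5XFAD in 3 of 4 comparisons, and in 4 of 4 once the library labelled female 5XFAD NX 4 was left out.

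Inpp5d, which encodes the inositol phosphatase SHIP1 that opposes phosphoinositide 3-kinase signalling (chr1:87620312-87720507), was also lower in 5XFAD CIH. In female CIH, it was at 1219, 1184, 1111, 1281 and 1174 CPM in WT and at 854, 959.5, 971, 877 and 921 CPM in 5XFAD (log2FC −0.37 ± 0.06, FDR = 1.71e-04), and the groups did not overlap. In male CIH, the levels were 1359, 1252, 1225, 1154 and 940.3 CPM in WT and 1004, 1153, 902, 708 and 669.8 CPM in 5XFAD, which overlapped (log2FC −0.41 ± 0.15, FDR = 0.0387). This male call was lost when any of 7 of the 10 libraries was left out, and with each library's trend on gene length as an offset (log2FC −0.23 ± 0.13, FDR = 0.147). In NX, Inpp5d was not called in females (log2FC −0.25 ± 0.12, FDR = 0.166, and log2FC −0.25 ± 0.11, FDR = 0.0794 without the library labelled 5XFAD NX 4) or males (log2FC −0.35 ± 0.12, FDR = 0.0627), although male WT NX libraries (973 to 1191 CPM) lay above those of 5XFAD NX (747 to 964 CPM). Without male 5XFAD NX 4 and 5 it passed (log2FC −0.50 ± 0.10, FDR = 0.00117).

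Plcg2, a phospholipase C that signals below activating receptors of myeloid cells (chr8:117498291-117635142), was not called in any of the 8 comparisons. Its group means lay between 249 and 298 CPM over both tables. The closest approach to the threshold between genotypes was in male NX (log2FC −0.26 ± 0.10, FDR = 0.0918), where all 5 WT libraries (278 to 335 CPM) lay above all 5 5XFAD libraries (234 to 263 CPM). Without 5XFAD NX 4 and 5 it stayed outside the threshold (log2FC −0.25 ± 0.09, FDR = 0.0526). In female NX it was at a log2FC of 0.10 ± 0.10, FDR = 0.479, and without the library labelled 5XFAD NX 4 at a log2FC of 0.14 ± 0.09, FDR = 0.235.

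Abi3, an adaptor of the WAVE complex that promotes branched actin (chr11:95830074-95842476), was lower in 5XFAD CIH females. Its levels were 751, 754, 716, 690.1 and 716 CPM in WT CIH and 549.9, 615, 596, 541 and 554 CPM in 5XFAD CIH (log2FC −0.33 ± 0.06, FDR = 2.59e-04), with no overlap. In female NX, WT libraries at 595 to 739.7 CPM overlapped with 5XFAD libraries at 536 to 673 CPM (log2FC −0.21 ± 0.12, FDR = 0.235). The difference passed without the library labelled female 5XFAD NX 4 (log2FC −0.27 ± 0.10, FDR = 0.0469). In males, Abi3 was not called between genotypes in NX (log2FC −0.42 ± 0.16, FDR = 0.0984, and log2FC −0.27 ± 0.15, FDR = 0.174 without 5XFAD NX 4 and 5) or CIH (log2FC 0.10 ± 0.13, FDR = 0.547). The exons of Abi3 overlap those of Zfp652, Phospho1 and Gngt2 on the opposite strand, and whether reads were counted by strand is not given in the sources used here, so the values of Abi3 are uncertain. In males, Zfp652 was at 165 to 295 CPM and Gngt2 at 85.0 to 224 CPM, ranges that overlapped that of Abi3 itself (100.3 to 225 CPM), and the part of their reads in the male values of Abi3 was not tested. In females, they were at 59.6 to 93.9 and 62.0 to 100.2 CPM, below Abi3 in every library (536 to 754 CPM).

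Bin1, a membrane-bending adaptor of endocytosis, was lower in 5XFAD in all 4 comparisons. In female NX, it was at 973, 1098, 1038 and 1017 CPM in WT and at 613, 601, 762, 893 and 624 CPM in 5XFAD (log2FC −0.56 ± 0.14, FDR = 0.0354). The groups did not overlap, and the highest 5XFAD value was that of the library labelled 5XFAD NX 4. Without it, the difference was a log2FC of −0.67 ± 0.10, FDR = 4.40e-04, whereas leaving out any other library of this comparison put the FDR above 0.05. In female CIH, levels were 994, 1033, 1064, 1047 and 1100.4 CPM in WT and 651, 699.6, 676, 640.0 and 585 CPM in 5XFAD, a 1.59-fold lower fitted level with no overlap (log2FC −0.67 ± 0.06, FDR = 9.00e-07).

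In male NX, Bin1 was at 926, 1147, 1068, 1182 and 1074 CPM in WT and at 852, 761, 846, 562 and 596 CPM in 5XFAD, with no overlap (log2FC −0.58 ± 0.14, FDR = 0.0117). The 2 lowest 5XFAD values were those of libraries 4 and 5, and the difference held without them (log2FC −0.40 ± 0.10, FDR = 0.00563). Bin1 in male CIH was at 1141, 928, 1020.2, 853 and 913 CPM in WT and at 779, 675, 835, 818 and 803 CPM in 5XFAD, again with no overlap (log2FC −0.30 ± 0.10, FDR = 0.0224). Without WT CIH 1 the difference was not called (log2FC −0.23 ± 0.09, FDR = 0.0528). The exons of Bin1 overlap those of the lincRNA A830052D11Rik on the opposite strand, which was at 2.75 CPM or below in every library.

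Sorl1, a sorting receptor that returns cargo from endosomes (chr9:41964720-42124297), went the other way. In female NX, it was at 122, 106, 93.8 and 94.6 CPM in WT and at 198, 164, 149, 103 and 169.8 CPM in 5XFAD (log2FC 0.59 ± 0.17, FDR = 0.0466). The lowest of the 5XFAD libraries was the one labelled 5XFAD NX 4, and without it the groups did not overlap (log2FC 0.70 ± 0.11, FDR = 7.04e-04). As with Bin1, leaving out any other library of this comparison put the FDR above 0.05. In female CIH, levels were 86.7, 90.9, 89.3, 109.8 and 109 CPM in WT and 118, 136, 149.7, 116 and 146 CPM in 5XFAD, a 1.38-fold higher fitted level with no overlap (log2FC 0.47 ± 0.09, FDR = 8.24e-04).

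In male NX, Sorl1 was at 59.0, 68.3, 63.2, 60.4 and 62.7 CPM in WT and at 75.6, 90.5, 70.2, 126 and 129 CPM in 5XFAD, and every 5XFAD library lay above every WT library (log2FC 0.65 ± 0.17, FDR = 0.0196). Without WT NX 1 the difference was not called (log2FC 0.63 ± 0.19, FDR = 0.0507). Libraries 4 and 5 were the highest of 5XFAD NX, and without them the log2FC was smaller but still called (log2FC 0.33 ± 0.11, FDR = 0.0282). In male CIH, WT libraries (59.3 to 87.3 CPM) and 5XFAD libraries (60.3 to 114 CPM) overlapped and Sorl1 was not called (log2FC 0.12 ± 0.16, FDR = 0.56). With the gene length offset, it was called there too (log2FC 0.40 ± 0.12, FDR = 0.015). The exons of Sorl1 overlap those of the antisense gene Gm16214, which had at most 24 counts in a female and 13 in a male library. Since the use of strand is not given, the values of Sorl1 are uncertain for reads in the shared exons.

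Picalm, a clathrin assembly protein (chr7:90130213-90213465), was not called between genotypes in any of the 4 comparisons. With all libraries, its log2FC ran from −0.30 in male CIH to −0.06 in male NX. Abca7, a lipid transporter of the ABC family (chr10:79996494-80015572), was not called either, with log2FC values from −0.21 to −0.12. Its level ranged from 71.5 to 137 CPM over the 39 libraries. Without the library labelled female 5XFAD NX 4, neither was called in female NX (Picalm log2FC −0.08 ± 0.11, FDR = 0.588, and Abca7 log2FC −0.20 ± 0.09, FDR = 0.0913). Without male 5XFAD NX 4 and 5, neither was called in male NX, and Picalm moved from a log2FC of −0.06 ± 0.15, FDR = 0.847, to log2FC −0.27 ± 0.11, FDR = 0.0692. Leaving out single libraries put the male NX log2FC of Picalm between −0.19 and 0.03, the latter without 5XFAD NX 1. Abca7 in male NX was at a log2FC of −0.12 ± 0.13, FDR = 0.596, and without 5XFAD NX 4 and 5 at a log2FC of −0.24 ± 0.12, FDR = 0.146.

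Spi1 (chr2:91082390-91115756) differed in direction between the 2 CIH comparisons of genotype. In female CIH, it was at 336, 307, 299, 334 and 328 CPM in WT and at 308, 257, 261, 279 and 301 CPM in 5XFAD, a small fall with overlapping groups (log2FC −0.17 ± 0.07, FDR = 0.0413). That call was lost when any of 7 of the 10 libraries was left out. In female NX, all WT libraries (303 to 339 CPM) lay above all 5XFAD libraries (251 to 291 CPM), with a difference just outside the threshold (log2FC −0.25 ± 0.08, FDR = 0.0604) that passed it without the library labelled 5XFAD NX 4 (log2FC −0.23 ± 0.07, FDR = 0.0225).

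In male CIH, Spi1 was at 447, 348, 331, 286 and 288 CPM in WT and at 372, 353, 548, 561 and 703 CPM in 5XFAD, which overlapped, and it was called higher in 5XFAD (log2FC 0.58 ± 0.18, FDR = 0.0156). In male NX, it was at 465, 577, 583, 677 and 640.0 CPM in WT and at 654, 466, 594, 277 and 233 CPM in 5XFAD, with no call (log2FC −0.40 ± 0.25, FDR = 0.329). The 2 lowest values of 5XFAD NX were those of libraries 4 and 5, and without them the log2FC was near 0 (log2FC −0.05 ± 0.13, FDR = 0.824).

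Mef2c, a transcription factor that restrains inflammatory responses of microglia (chr13:83504034-83667080), showed small changes, whose sign in CIH differed between the sexes. In female CIH, it was at 460.2, 444, 421, 487 and 452 CPM in WT and at 489, 505, 479.7, 527 and 584 CPM in 5XFAD (log2FC 0.21 ± 0.07, FDR = 0.018). In male CIH, it was at 369, 409, 401, 404 and 344 CPM in WT and at 310.4, 338, 348, 313 and 341 CPM in 5XFAD (log2FC −0.21 ± 0.08, FDR = 0.0482). Both pairs of groups overlapped, and the male call was lost when any of 7 of the 10 libraries was left out. With scaling by library size alone, the female difference was no longer called (log2FC 0.01 ± 0.06, FDR = 0.864). That scaling moved the median log2FC of all genes in female CIH from −0.02 to −0.21. With the gene length offset, the male difference turned positive and was not called (log2FC 0.18 ± 0.10, FDR = 0.145). In NX, Mef2c was not called in females (log2FC 0.19 ± 0.13, FDR = 0.3, and log2FC 0.25 ± 0.10, FDR = 0.0665 without the library labelled 5XFAD NX 4) or males (log2FC 0.18 ± 0.19, FDR = 0.58), and male 5XFAD NX 4 and 5, at 539 and 488 CPM, lay above the other 3 libraries of the group (299 to 310.2 CPM). Without these 2, the male NX difference turned negative and was not called (log2FC −0.17 ± 0.11, FDR = 0.26).

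**Figure D3:**
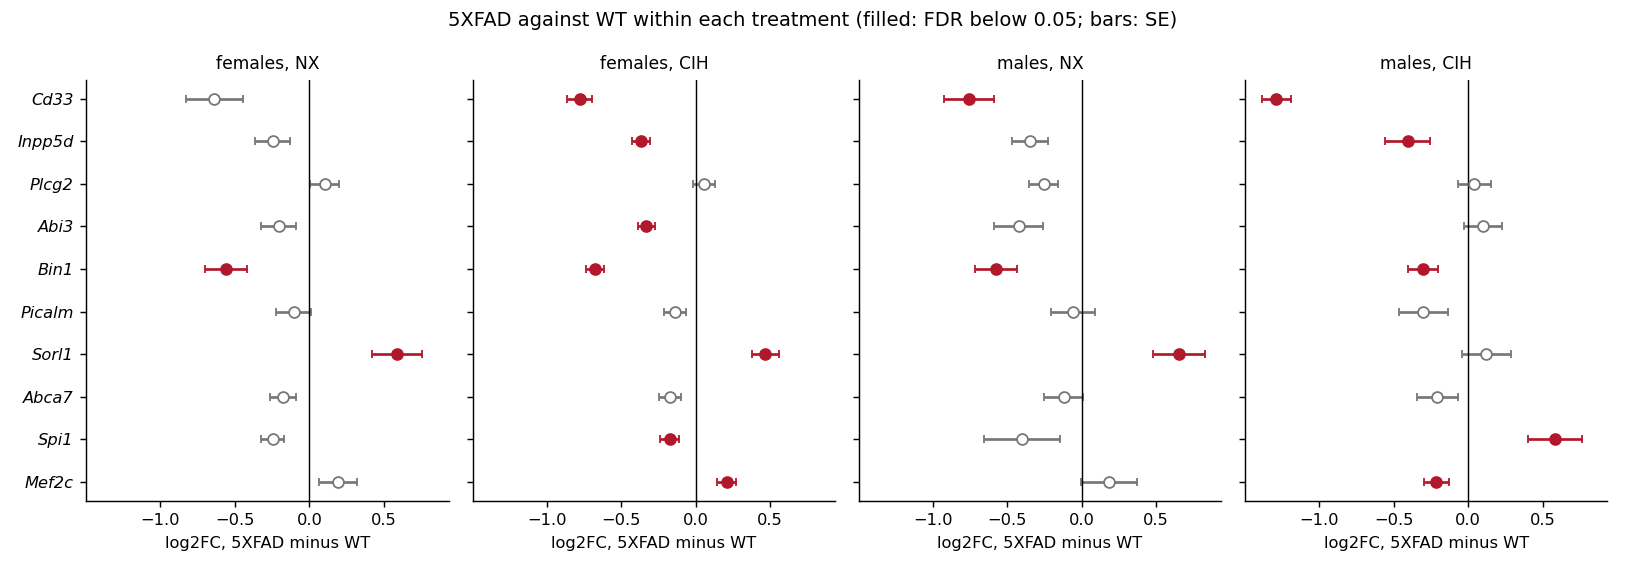
log2FC (5XFAD minus WT) with SE of the 10 members in the 4 comparisons of genotype, by edgeR. Filled points had an FDR below 0.05. Cd33 and Bin1 lay below 0 in all 4 panels, Sorl1 lay above 0 in all 4, and Spi1 changed side between female and male CIH.

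The effect of CIH was examined within each genotype. In females, none of the 10 members was called in WT NX vs WT CIH or in 5XFAD NX vs 5XFAD CIH by edgeR's quasi-likelihood test or DESeq2, and none had an unadjusted p below 0.05. Of all genes, 0% were called by the quasi-likelihood test in either comparison, with 565 and 470 genes at an unadjusted p below 0.05 and 1 and 0 genes called by DESeq2. The study itself reported a few DEGs in each of these comparisons with edgeR. The log2FC of the members ran from −0.12 to 0.09 in WT and from −0.23 to 0.05 in 5XFAD, with SEs of 0.05 to 0.17. Without the library labelled female 5XFAD NX 4, the range in 5XFAD females was −0.34 to 0.10 with 0 members called, and Sorl1 had the largest difference (log2FC −0.34 ± 0.10, FDR = 0.623).

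In WT males, 3 of 10 members were called between NX and CIH, where 28.6% of all genes were called. Spi1 was at 465, 577, 583, 677 and 640.0 CPM in NX and at 447, 348, 331, 286 and 288 CPM in CIH, a 1.73-fold lower fitted level (log2FC −0.79 ± 0.13, FDR = 5.39e-04). It was the only member whose libraries did not overlap between the treatments, which held for 17.2% of all genes. Abi3 was lower in CIH as well, from 159, 185, 225, 144 and 161 CPM to 167, 154, 112, 111 and 110.4 CPM (log2FC −0.42 ± 0.14, FDR = 0.0346), its call was lost when any of 5 of the 10 libraries was left out, and the male levels of Zfp652 and Gngt2, on the other strand, overlapped its own. Picalm was higher in CIH, from 685, 729.9, 689, 693 and 599 CPM to 889, 723, 1023, 816 and 905 CPM (log2FC 0.36 ± 0.09, FDR = 0.0105), and overlapped between groups at the second CIH library alone. With each library's trend on gene length as an offset, Picalm was not called (log2FC 0.00 ± 0.10, FDR = 0.992). The other 7 were not called, with Sorl1 (log2FC 0.24 ± 0.10, FDR = 0.0856) and Plcg2 (log2FC −0.20 ± 0.09, FDR = 0.0947) nearest to the threshold. In a fit over all 4 male groups, no member and no gene at all was called in this comparison, and Spi1 had an FDR of 0.0644. Neutrophil markers moved with this comparison as well, with sums of 8 genes at 207 to 1105 CPM in WT NX and 95.2 to 284 CPM in WT CIH males and 5 of the 8 called lower in CIH, and their part in it was not tested. The ranges of Malat1 overlapped between these groups only from 863 to 925 CPM, and its part was likewise not tested. Of other markers in this comparison, 5 of 10 DAM, 4 of 9 microglial, 2 of 6 border macrophage and 2 of 3 tested lymphocyte markers were called lower in CIH, and 1 of 6 astrocyte and 1 of 7 oligodendrocyte markers higher. Sums of the DAM markers were 8715 to 12076 CPM in WT NX and 6707 to 6943 CPM in WT CIH, those of the microglial markers 31623 to 35322 and 27670.4 to 32019.6 CPM, and the part of these markers was not tested.

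In 5XFAD males, no member was called between NX and CIH by the quasi-likelihood test or DESeq2, and 0% of all genes were called by the quasi-likelihood test, with 473 at an unadjusted p below 0.05 and 1 gene called by DESeq2. Cd33 had the lowest unadjusted p of the members (log2FC −0.35 ± 0.16, unadjusted p = 0.0552, FDR = 0.995). Its levels were 628 ± 153 CPM in NX and 495 ± 44.8 CPM in CIH (SD, n = 5 each), and without male 5XFAD NX 4 and 5 the difference was close to 0 (log2FC −0.06 ± 0.11, FDR = 0.889). The log2FC of the 10 members ran from −0.35 to 0.19 with all libraries and from −0.16 to 0.33 without these 2, with 0 called.

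**Figure D4:**
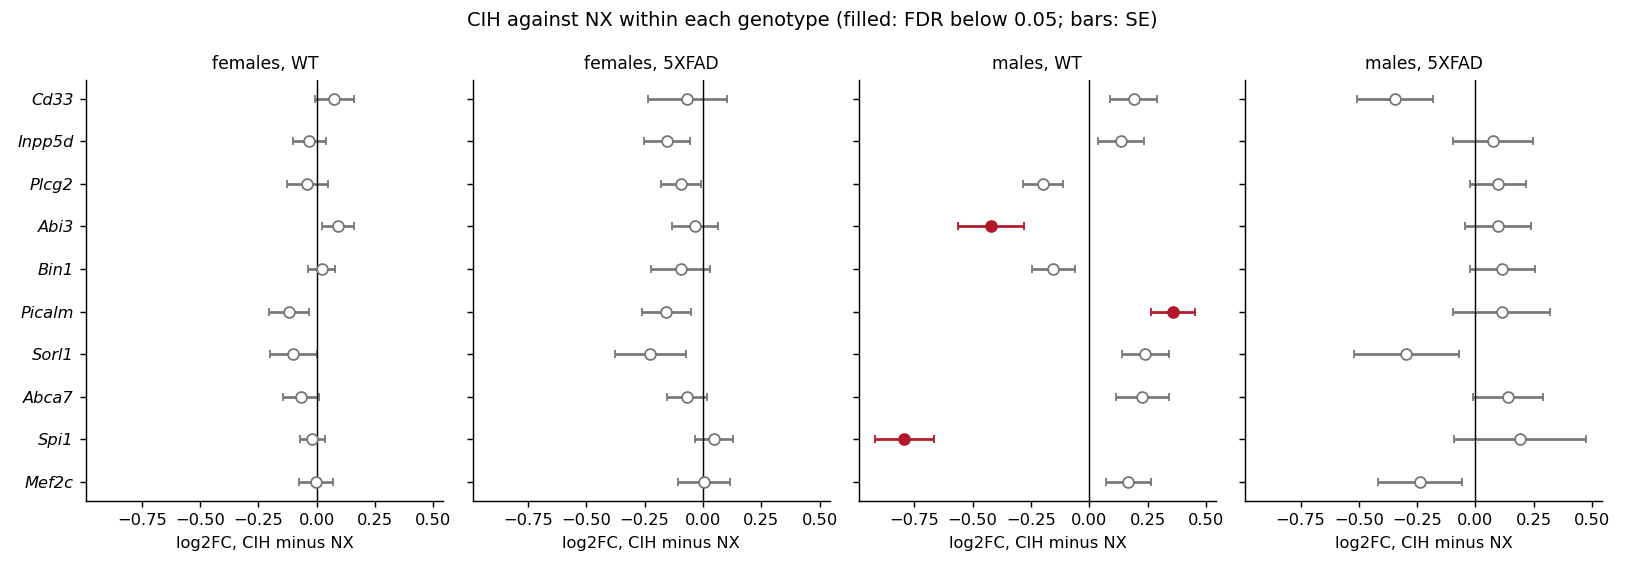
log2FC (CIH minus NX) with SE of the 10 members in the 4 comparisons of treatment, by edgeR. Filled points had an FDR below 0.05. Spi1, Abi3 and Picalm in WT males were the only filled points, and of these only Spi1 was called with the gene length offset.

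Whether the effect of CIH differed between genotypes was tested as an interaction over the 4 groups of a sex. By the quasi-likelihood test, no member was called in females or males, and neither was any other gene (0% of all genes in both), with 589 and 3857 genes at an unadjusted p below 0.05. DESeq2 called 0 and 945 genes. The latter included 1 member, Spi1 (log2FC 0.99 ± 0.33, FDR = 0.045). In females, the interaction of the 10 members lay between −0.15 and 0.06, with SEs of 0.10 to 0.21. Without the library labelled female 5XFAD NX 4 it lay between −0.25 and 0.04, with SEs of 0.09 to 0.15, and 0 members were called. In males, 5 members had an unadjusted p below 0.05 in the quasi-likelihood test. Spi1 had the largest interaction (log2FC 0.98 ± 0.34, unadjusted p = 0.00803, FDR = 0.122) and was called lower in CIH in WT males alone. In 5XFAD males its difference between CIH and NX was a log2FC of 0.19 ± 0.28, FDR = 0.995, and without 5XFAD NX 4 and 5 it turned negative (log2FC −0.16 ± 0.20, FDR = 0.835). Cd33 (log2FC −0.54 ± 0.19, unadjusted p = 0.0116, FDR = 0.128) and Sorl1 (log2FC −0.54 ± 0.25, unadjusted p = 0.0412, FDR = 0.189) had negative interactions, and Abi3 (log2FC 0.51 ± 0.22, unadjusted p = 0.0262, FDR = 0.16) and Plcg2 (log2FC 0.29 ± 0.14, unadjusted p = 0.0496, FDR = 0.204) positive ones. Without male 5XFAD NX 4 and 5, only Spi1 kept an unadjusted p below 0.05 (log2FC 0.62 ± 0.25, unadjusted p = 0.0239, FDR = 0.429).

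The male libraries also differed in how level depended on gene length. The slope of log2 CPM on log2 gene length, relative to the mean of the table, ran from −0.04 to 0.04 per doubling of length in WT NX, from −0.01 to 0.10 in WT CIH, from −0.07 to 0.09 in 5XFAD NX and from −0.10 to 0.05 in 5XFAD CIH. Spi1, at 2695 bases of exons a short member, was at 233 to 353 CPM in the 7 libraries with the highest slopes and at 372 to 703 CPM in the other 13. Picalm, at 15732 bases the longest, was at 684 to 1023 CPM in those 7 libraries and at 485 to 889 CPM in the other 13, which overlapped. Members of like length also overlapped. Bin1, at 2451 bases the shortest, was at 562 to 1020 CPM in those 7 and at 761 to 1182 CPM in the other 13. Mef2c, at 15715 bases, was at 338 to 539 CPM and at 291 to 388 CPM. The cut at 7 libraries was chosen after the values were seen, and the library next in slope, male WT NX 2 (0.04), had Spi1 at 577 CPM. Male 5XFAD NX 4 and 5 had slopes of 0.08 and 0.09, against −0.07 to −0.02 in the other 3 of their group. With each library's length trend as an offset, Spi1 was still called lower in WT CIH than in WT NX males (log2FC −0.62 ± 0.11, FDR = 0.00241), whereas Picalm was not called and Abi3 missed the threshold (log2FC −0.41 ± 0.14, FDR = 0.0526). Among female libraries, slopes lay between −0.07 and 0.08 except for the library labelled 5XFAD NX 4, at 0.16. Cd33 and Bin1 stayed lower in 5XFAD with the offset in all 4 comparisons of genotype, although Cd33 in female NX was not called (log2FC −0.59 ± 0.18, FDR = 0.0545).

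**Figure D5:**
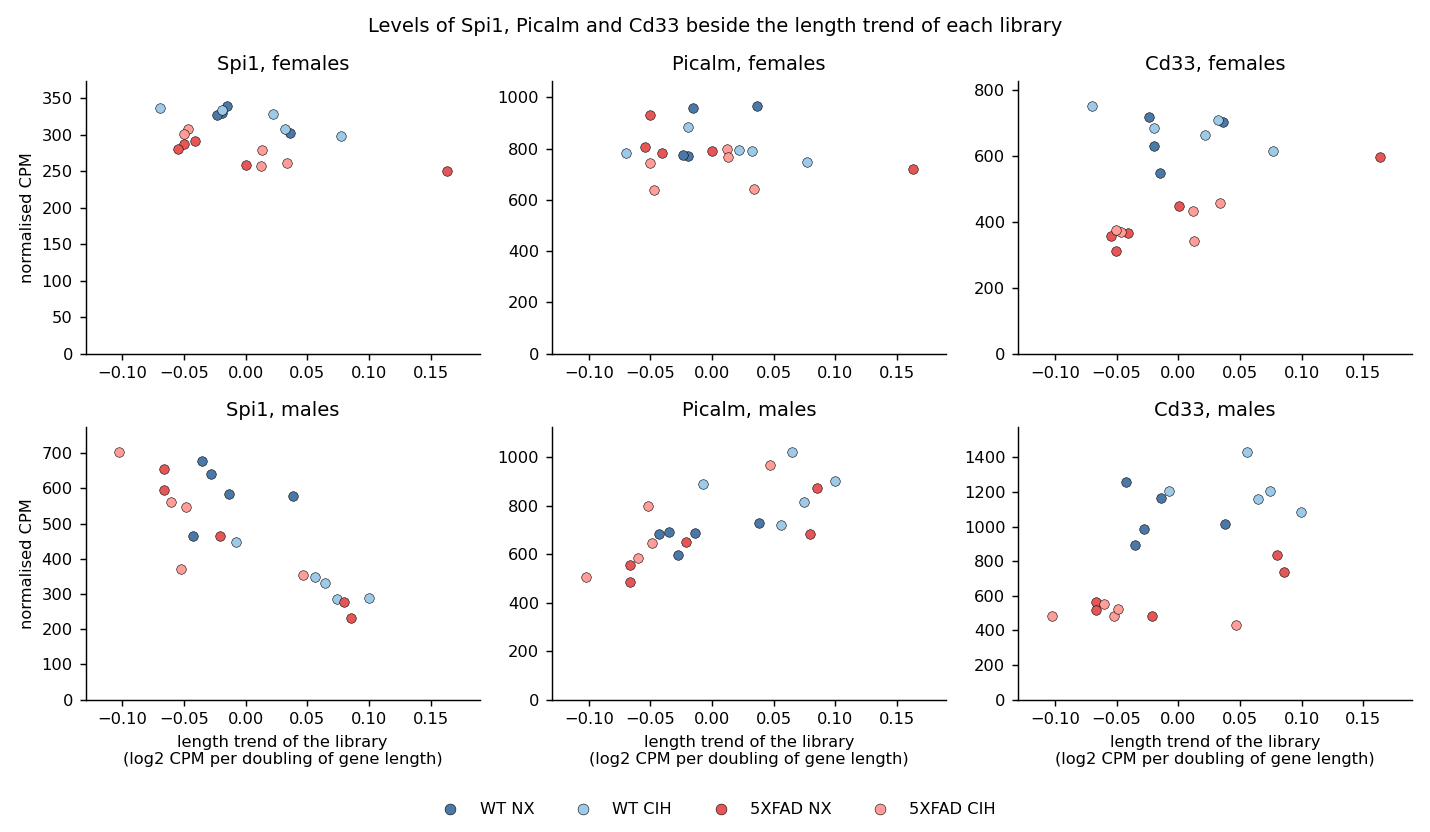
Normalised CPM of Spi1, Picalm and Cd33 against the length trend of each library (change in log2 CPM per doubling of gene length), for 19 female and 20 male libraries coloured by group. In males, Spi1 was at 233 to 353 CPM and Picalm at 684 to 1023 CPM in the 7 libraries with the highest trends. This cut was made after the values were seen, and Picalm, Bin1 and Mef2c overlapped across it. Cd33 was lower in every male 5XFAD library than in every male WT library. Male WT trends ran from −0.04 to 0.10 and 5XFAD trends from −0.10 to 0.09, so the genotypes shared only part of the axis.

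The other genes of the pathways were read from lists of related genes. Over all genes tested, 26.2% were called higher and 25.7% lower in 5XFAD in female CIH, and 25.3% and 23.7% in male CIH, with medians of −0.02 and −0.06. Among 8 Siglec family genes other than Cd33, 7 were tested in each comparison of genotype. In female CIH, 2 were higher and 4 lower in 5XFAD (median log2FC −0.51), with the largest rise in Cd22 (log2FC 1.46 ± 0.13, FDR = 8.64e-07) and the largest fall in Siglecg (log2FC −2.17 ± 0.22, FDR = 2.84e-06). In male CIH, 2 were higher and 3 lower, led by Siglecf (log2FC 1.72 ± 0.09, FDR = 4.58e-09) and Siglecg (log2FC −1.93 ± 0.34, FDR = 3.04e-04). Cd22 and Siglecf thus moved in the direction opposite to Cd33, whereas more of the tested Siglec genes fell with it. Besides Siglecg, these included Siglece (log2FC −1.87 ± 0.12, FDR = 3.74e-08 in female CIH and log2FC −1.35 ± 0.16, FDR = 1.01e-05 in male CIH).

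Of 48 genes of ITAM and phosphoinositide signalling, around Inpp5d and Plcg2, all were tested. In female CIH, 14 were higher and 19 lower (median log2FC −0.05) in 5XFAD, and in male CIH 15 and 22 (median −0.12). The Src family kinase Fgr rose in both (log2FC 2.37 ± 0.13, FDR = 1.30e-08 in females and log2FC 2.16 ± 0.15, FDR = 4.56e-08 in males). Plcg1, the close relative of Plcg2, fell in both (log2FC −0.86 ± 0.06, FDR = 1.43e-07 and log2FC −1.19 ± 0.10, FDR = 2.13e-07).

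Of 27 genes of the WAVE and Arp2/3 actin machinery, in which Abi3 acts, 25 were tested in each CIH comparison. In females, 13 were higher and 4 lower (median log2FC 0.25), and in males 11 and 1 (median 0.14). Wasf3, a WAVE subunit, rose most in both (log2FC 2.48 ± 0.44, FDR = 3.96e-04 in females and log2FC 1.43 ± 0.37, FDR = 0.00516 in males). In WT males, 9 of 26 were lower and 1 higher in CIH than in NX, where 15% of all genes were called lower and 13.6% higher, with Rac2, a small GTPase of blood cells, lowest (log2FC −0.64 ± 0.11, FDR = 8.15e-04).

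Of 46 genes of endocytosis and retromer sorting, 45 were tested. In female CIH, 22 were higher and 11 lower (median log2FC 0.13) in 5XFAD, and in male CIH 18 and 8 (median 0.19). The phosphatase gene Synj2 rose in both (log2FC 1.46 ± 0.08, FDR = 1.49e-08 and log2FC 1.62 ± 0.14, FDR = 6.09e-07), and Bin2, a myeloid relative of Bin1, was the largest fall in females (log2FC −0.76 ± 0.07, FDR = 1.30e-06). Among 12 other ABC transporters, 5 of 11 were higher and 2 lower in female CIH, led by Abca8b (log2FC 2.36 ± 0.47, FDR = 0.00101), and 1 of 10 was higher and 2 lower in male CIH, with the cholesterol exporter Abca1 lowest (log2FC −1.09 ± 0.15, FDR = 3.44e-05).

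Of 32 transcription factors and cofactors of the macrophage network around Spi1 and Mef2c, 29 were tested in each CIH comparison of genotype. In females, 10 were higher and 12 lower (median log2FC −0.17), and in males 8 and 10 (median −0.01). Bhlhe40, a transcriptional repressor, rose most in both (log2FC 4.18 ± 0.13, FDR = 5.55e-11 and log2FC 4.44 ± 0.25, FDR = 7.47e-09), and Irf4 fell most (log2FC −1.48 ± 0.20, FDR = 4.70e-05 and log2FC −1.75 ± 0.19, FDR = 3.29e-06). Of 12 receptor and surface genes known as PU.1 targets, 5 were lower and 2 higher in CIH in WT males, the comparison in which Spi1 itself was lower and in which 15% of all genes were called lower and 13.6% higher. Cd68 fell most (log2FC −0.86 ± 0.13, FDR = 4.01e-04), while Tlr4 rose (log2FC 0.79 ± 0.14, FDR = 9.18e-04). In male CIH, where Spi1 was higher in 5XFAD, 4 of these 12 were higher and 3 lower. Some of these genes, such as Aif1 and Cx3cr1, are also among the microglial markers. The part of Spi1 in these counts was not tested.

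Among 58 mouse orthologs at other Alzheimer's disease loci, 50 were tested in each CIH comparison. In females, 13 were higher and 15 lower in 5XFAD (median log2FC 0.00), and in males 15 and 16 (median 0.05). Apoe, the lipid carrier of the DAM profile, rose most in both (log2FC 4.00 ± 0.17, FDR = 1.47e-09 and log2FC 4.39 ± 0.18, FDR = 3.38e-10), and Cass4 fell most (log2FC −1.67 ± 0.12, FDR = 1.24e-07 and log2FC −2.01 ± 0.26, FDR = 1.87e-05).

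The same lists were read in NX. Over all genes tested, 7.26% were called higher and 6.61% lower in 5XFAD in female NX, and 10.4% and 7.37% in male NX. Of the Siglec family genes, 2 were higher and 3 lower of 7 tested in female NX, and 2 and 3 of 7 in male NX. Of the ITAM and phosphoinositide genes, 5 were higher and 7 lower of 48 tested in female NX, and 7 and 11 of 48 in male NX. Of the WAVE and Arp2/3 genes, 1 was higher and 1 lower of 25 tested in female NX, and 3 and 2 of 26 in male NX. Of the endocytosis and retromer genes, 3 were higher and 3 lower of 45 tested in female NX, and 3 and 4 of 45 in male NX. Of the ABC transporter genes, 2 were higher and 0 lower of 11 tested in female NX, and 2 and 0 of 10 in male NX. Of the macrophage transcription factor genes, 2 were higher and 4 lower of 29 tested in female NX, and 5 and 9 of 31 in male NX. Of the PU.1 target genes, 3 were higher and 1 lower of 12 tested in female NX, and 2 and 2 of 12 in male NX. Of the other risk locus genes, 7 were higher and 6 lower of 50 tested in female NX, and 9 and 7 of 51 in male NX. The female NX counts include the library labelled 5XFAD NX 4, and the male NX counts include 5XFAD NX 4 and 5.

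The remaining lists were also read in WT NX vs WT CIH males. Of 7 Siglec family genes tested, 0 were higher and 1 lower in CIH. Of 48 ITAM and phosphoinositide genes tested, 11 were higher and 12 lower in CIH. Of 45 endocytosis and retromer genes tested, 11 were higher and 10 lower in CIH. Of 10 ABC transporter genes tested, 2 were higher and 0 lower in CIH. Of 32 macrophage transcription factor genes tested, 5 were higher and 3 lower in CIH. Of 51 other risk locus genes tested, 10 were higher and 13 lower in CIH. The shares over all genes were 13.6% higher and 15% lower.

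The genes most like each member from library to library were found from log2 CPM centred on the group means, over 19 female and 20 male libraries and 8584 genes, by the lower of the Pearson correlations of the sexes. These libraries share depth and length trends, so the correlations are descriptions. Spi1 was most like Vdac2 (r = 0.92 in females and 0.93 in males) and Mrpl23 (0.91 and 0.92). Bin1 was most like Arrb2 (r = 0.95 and 0.89) and Kcnk12 (0.89 and 0.88), Cd33 most like Mtx3 (0.95 and 0.89) and Ankrd16 (0.91 and 0.88), and Sorl1 most like Fndc3b (0.95 and 0.88) and Jak1 (0.88 and 0.89). Mef2c was most like Slc16a7 (0.91 and 0.88) and Asph (0.86 and 0.93), Inpp5d most like Rptor (0.84 and 0.87) and Rhobtb2 (0.79 and 0.87), and Plcg2 most like Lrp5 (0.83 and 0.84) and Nfatc1 (0.76 and 0.83). For Picalm these genes were Stk17b (0.83 and 0.83) and Hyou1 (0.84 and 0.82), for Abi3 Map1s (0.79 and 0.80) and Mbd6 (0.85 and 0.79), and for Abca7 Foxk1 (0.78 and 0.80) and Sbf1 (0.77 and 0.77). Without the library labelled female 5XFAD NX 4, the 20 female correlations ran from 0.71 to 0.96, and without male 5XFAD NX 4 and 5 the 20 male ones ran from 0.70 to 0.90, over 18 libraries each.

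Of the 45 pairs of members, 31 had correlations of the same sign in both sexes. Pairs named here were chosen after their values were seen. The sign held for Bin1 with Sorl1 (r = −0.63 in females and −0.70 in males), Abca7 with Inpp5d (0.57 and 0.81), and Picalm with Sorl1 (0.58 and 0.77). Others turned: Bin1 with Spi1 was at −0.73 in females and 0.88 in males, and Bin1 with Cd33 at 0.80 and −0.59. Without the library labelled female 5XFAD NX 4 and male 5XFAD NX 4 and 5, 33 of the 45 pairs had the same sign, and several of the named values moved towards 0. Bin1 with Sorl1 was then at −0.21 and −0.43 in females and males, Bin1 with Cd33 at 0.58 and −0.08, and Bin1 with Spi1 at −0.71 and 0.78. Abca7 with Inpp5d was at 0.58 and 0.79, and Picalm with Sorl1 at 0.53 and 0.71.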

How the data were processed

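RNA from CD11b+ cells of WT and 5XFAD mice in NX or CIH was sequenced as paired-end mRNA libraries. Sex, genotype, treatment and replicate were taken from the titles in the labels. The submitters' processing notes name HISAT2 and the builds GRCm38 and mm10. The counting tool, its annotation and its use of strand are not given in the sources used here. The authors deposited whole-number read counts per gene without normalization, and FPKM values. In females the FPKM equal the counts scaled by gene length and library total. In males they carry a further factor per library, not explained in the sources used here. Female tables list gene symbols, and male tables list Ensembl identifiers with positions and gene lengths on GRCm38. Female gene lengths were worked out from counts and FPKM.

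Each comparison used the counts of its own libraries alone. Genes that exceeded a CPM of 1 in 3 or more of them, the limit named in the study's methods, were normalised by TMM and tested with the quasi-likelihood F test of edgeR (4.0.16, under R 4.3.3). Adjustment ran over all genes tested (Benjamini-Hochberg), and a member was called at an FDR below 0.05. The SE is the absolute log2FC divided by the square root of F. The interaction of genotype and treatment was fitted over the 4 groups of a sex. FPKM values served to order genes by level within a table, with no test. Libraries of a group differed by more than sampling noise in all 76 pairs (lowest chi-square per degree of freedom 4.86). The methods call the samples independent but do not tie each to 1 mouse, and p-values measure the spread between these libraries.

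Alternatives were DESeq2 1.42.0, the likelihood ratio test of edgeR, library size in place of TMM, no filter, all 4 groups in 1 fit, the replicate number as a block, and each library left out in turn. A further 3 were added after the data were seen, namely each library's smoothed trend on gene length as an offset, male 5XFAD NX 4 and 5 left out together, and correlations without the libraries that stood apart. The members, the lists of related genes and the markers were chosen with earlier results of these data known. All 10 members were named in every comparison, and from each list at most 2 genes with the largest rise and 2 with the largest fall among those called. Genes most like a member had the highest value of the lower of the female and male Pearson correlations, among genes tested in both tables with a mean of at least 10 CPM in each. Cst7 and Malat1 were named after their values were seen. Promoter sequences are from RefSeq on GRCm38.p6 and were found by symbol.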

Additional observations from a re-analysis of the deposited data

How the results depend on the processing

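Of the members called, 1 changed direction under an alternative: Mef2c in male WT CIH vs 5XFAD CIH was at a log2FC of −0.21 as reported and at 0.18, not called, with the gene length offset. Plcg2 in the same comparison was not called at 0.04 and was called at −0.32 with scaling by library size alone, which moved the median log2FC of all genes there from −0.06 to −0.43. The offset and the left-out pair of libraries were chosen after seeing the data.

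The number of members called in female WT NX vs 5XFAD NX was 2, and became 4 with DESeq2, 5 with all 4 groups in 1 fit, 1 with library size alone and 0 with the replicate number as a block. In male WT NX vs 5XFAD NX it was 3, and became 5 with DESeq2, 6 with library size alone and 1 with the block. In male WT CIH vs 5XFAD CIH it was 5, and became 3 with no filter and 3 with all 4 groups in 1 fit. In male WT NX vs WT CIH it was 3, and became 5 with library size alone, 0 with all 4 groups in 1 fit and 1 with the gene length offset. In the male interaction it was 0, and became 1 with DESeq2 and 1 with no filter. The cause was not tested. Other alternatives kept these counts within 1.5 times, as did all those run for female WT CIH vs 5XFAD CIH (5 to 8 called), and the counts of 0 in the comparisons of treatment in 5XFAD females, 5XFAD males and WT females and in the female interaction stayed at 0. Over all genes, the 2013 calls in female WT NX vs 5XFAD NX became 3509 with DESeq2, 1311 with library size alone, 4622 with all 4 groups in 1 fit, 7 with the block, 6229 without the library labelled 5XFAD NX 4 and 43 to 933 without any 1 of the others. The 2638 in male WT NX vs 5XFAD NX became 1310 with the block and 4792 without 5XFAD NX 4 and 5, and the 4279 in male WT NX vs WT CIH became 0 with all 4 groups in 1 fit and 2777 with the length offset. The 0 in the male interaction became 945 with DESeq2, 248 with the likelihood ratio test, 1754 with no filter and 953 without 5XFAD NX 1. The 0 in female WT NX vs WT CIH became 1 with DESeq2 and 22 with no filter, and that in male 5XFAD NX vs 5XFAD CIH became 1 with DESeq2 and 1 with the likelihood ratio test.

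With each library left out in turn, the count ran from 0 to 5 in female WT NX vs 5XFAD NX, from 6 to 7 in female WT CIH vs 5XFAD CIH, from 2 to 4 in male WT NX vs 5XFAD NX, from 3 to 5 in male WT CIH vs 5XFAD CIH, from 2 to 3 in male WT NX vs WT CIH and from 0 to 1 in the male interaction. The 5 came without the library labelled 5XFAD NX 4, and leaving out any of the other 8 gave 0. The 1 in the male interaction came without 5XFAD NX 1 and was Spi1 (FDR = 0.0472).

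Deviations from the group means were correlated between same-numbered libraries of different groups. The median r was −0.03 over 27 female and 0.01 over 30 male pairs. Values ran from −0.34 to 0.35 and from −0.49 to 0.30, and 9 in each sex exceeded 0.1. A library correlated best with its own number in 12 of 54 female and 14 of 60 male cases. The numbers were used as names of the libraries, and these correlations cannot exclude a pairing or a shared batch.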
